A study of Mus musculus with 6 samples.

Results

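Naca and Btf3 encode the alpha and beta subunits of the nascent polypeptide-associated complex (NAC). Both genes were taken by symbol, and made up 2 of the 13659 gene symbols and 7 of the 37478 transcripts in the deposited table (2 transcripts of Naca and 5 of Btf3). Their RNA was measured in 6 bulk RNA-seq libraries of MC3T3-E1 cells, subclone 4, a single osteoblast-like subclone derived from mouse calvaria. In 3 libraries the cells had received PTH(1-34), a parathyroid hormone fragment that activates the PTH receptor, and in 3 they had received vehicle. All cells grew in alpha-MEM with fetal bovine serum. The dose is not given in the sources used here, and it is uncertain how long cells were treated, because 30 min stands in one label and 2 h in another. The series title names NACA as a coregulator with Nfil3 as its target, which puts the RNA of NACA itself, and of its usual partner, among the quantities to check.

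NAC is a heterodimer that sits at the ribosome's exit tunnel, where it meets nascent chains, shields them, and keeps the signal recognition particle from taking ribosomes without a signal sequence to the endoplasmic reticulum. NACA also has a second role as a transcriptional coregulator: in osteoblasts, PTH signals through cyclic AMP and protein kinase A to phosphorylate NACA, which then enters the nucleus and acts with AP-1 factors at target promoters. BTF3 was first isolated as a basic transcription factor of RNA polymerase II before it was recognised as the beta subunit of NAC.

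Each gene was carried almost entirely by 1 transcript, and the annotated junctions that set the Naca transcripts apart are shown first. The transcript results are the authors' FPKM estimates, and no reads over these junctions were counted here. Naca (ENSMUSG00000061315) lies on chromosome 10 from 128035575 to 128048637, plus strand, and Btf3 (ENSMUSG00000021660) on chromosome 13 from 98309896 to 98317006, minus strand (GENCODE M21 on GRCm38, the assembly also called mm10). Naca-201 has 8 exons and an open reading frame of 215 codons for the common NACA. Naca-202 has 9 exons and 2187 codons for skNAC, the form known from skeletal and heart muscle; it takes in an extra exon 3 of 5916 bases (chr10:128039171-128045086). Exon 3 of Naca-201 is exon 4 of Naca-202, so the skipped exon is visible as a change of partner at the junction. In the 3 sequences below, read from GRCm38, capitals mark the exon downstream of the junction.
Naca-201 exon 2 to 3: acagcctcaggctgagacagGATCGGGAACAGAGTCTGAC
Naca-202 exon 2 to 3: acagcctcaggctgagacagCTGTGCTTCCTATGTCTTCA
Naca-202 exon 3 to 4: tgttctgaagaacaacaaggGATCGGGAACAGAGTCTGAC

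Btf3-201 and Btf3-205 differ in exon 1. Btf3-201 uses a longer exon 1 that holds 126 coding bases and opens a frame of 204 codons, the longer form known as BTF3a. Btf3-205 joins a shorter exon 1 to the same exon 2, where its frame of 162 codons begins, the form known as BTF3b that pairs with NACA.

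Values are FPKM, which is fragments corrected for transcript length and for the mapped fragments in each library, and a gene's value is the sum over its transcripts. The FPKM totals of the libraries ran between 618221 and 853916, of which the short RNA gene Mir5105 alone took 19.0 to 39.6%; those of the 11733 protein-coding symbols ran between 411178 and 420206. The files hold no counts, so depth is unknown and no counting interval is given. Of 6 osteoblast markers 5 were in the table, with summed levels of 196.1 to 326.7 FPKM with PTH and 195.7 to 351.8 FPKM with vehicle. These sums hold opposite changes: Sp7, an osteoblast transcription factor, fell to 6.787 ± 1.597 FPKM with PTH, against 42.7 ± 11.5 FPKM with vehicle (SD, n = 3 each; limma, adjusted p = 0.000283). Bglap and Runx2 rose, and Alpl and Ibsp did not pass as deposited. The call of Runx2 (limma, adjusted p = 0.0434) was lost under quantile normalisation, under the FPKM total and without any 1 of the PTH libraries, among others. With the replicate number of the libraries as a block, 2 of the 5 markers were higher and 2 lower, where 63.8% of all tested genes passed. Phex is not among the genes analysed here. Of 6 skeletal muscle markers Tnnt3 alone was in the table, at up to 0.572 FPKM with PTH and 0.651 FPKM with vehicle. The markers of blood and adipocytes that were in the table stayed under 1 FPKM when summed, and no endothelial marker was in it. The single cartilage marker, Col2a1, stood at 1.83 to 6.27 FPKM with PTH and 0.959 to 3.76 FPKM with vehicle. Its log2 difference of 0.69 did not pass as deposited (limma, adjusted p = 0.303) and passed with the block and under the FPKM total. In bulk RNA, fewer cells of a type and less RNA per cell cannot be told apart.

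Naca and Btf3 were among the most abundant RNAs of these cells, and neither was found to change with PTH. Naca stood at 397.6, 404.4 and 433.1 FPKM in the PTH libraries, against 426.9, 432.3 and 422.1 FPKM in the vehicle libraries. PTH library 3 was the highest of all 6 and PTH library 1 the lowest, so the groups overlapped. The means were 411.7 ± 18.9 FPKM with PTH and 427.1 ± 5.08 FPKM with vehicle (SD, n = 3 each). The difference was -0.05 on the log2(FPKM + 0.5) scale (SE 0.04), with a 95% interval of -0.16 to 0.05, or 0.895 to 1.04 as a fold. It did not pass the threshold of 0.05 on the adjusted p (limma, adjusted p = 0.346 over 11628 genes), and the exact two-sided permutation test of the means gave p = 0.4, where 3 against 3 cannot go below 0.1.

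Btf3 stood at 269.4, 272.4 and 297.8 FPKM in the PTH libraries, against 274.4, 288.9 and 290.3 FPKM in the vehicle libraries. PTH library 3 was again the highest and PTH library 1 the lowest, and the groups overlapped. The means were 279.9 ± 15.6 FPKM with PTH and 284.6 ± 8.84 FPKM with vehicle (SD, n = 3 each). The log2 difference was -0.02 (SE 0.05), with a 95% interval of -0.15 to 0.10, or 0.902 to 1.07 as a fold (limma, adjusted p = 0.718; exact permutation p = 0.8).

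Of the 2 genes, 0 passed the threshold, where 51.7% of the 11628 tested genes did (10.8% higher and 41.0% lower with PTH). Most calls among all genes were downward on the deposited scale, and the median log2 difference of all tested genes was -0.15. On that scale a larger absolute difference than that of Naca was found in 85.6% of the tested genes, and a larger one than that of Btf3 in 93.1%. These shares were not computed for centred libraries, where Naca stood at 0.07, Btf3 at 0.10 and the median gene at -0.03. A p that misses the threshold does not show that the levels were equal.

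**Figure D1:**
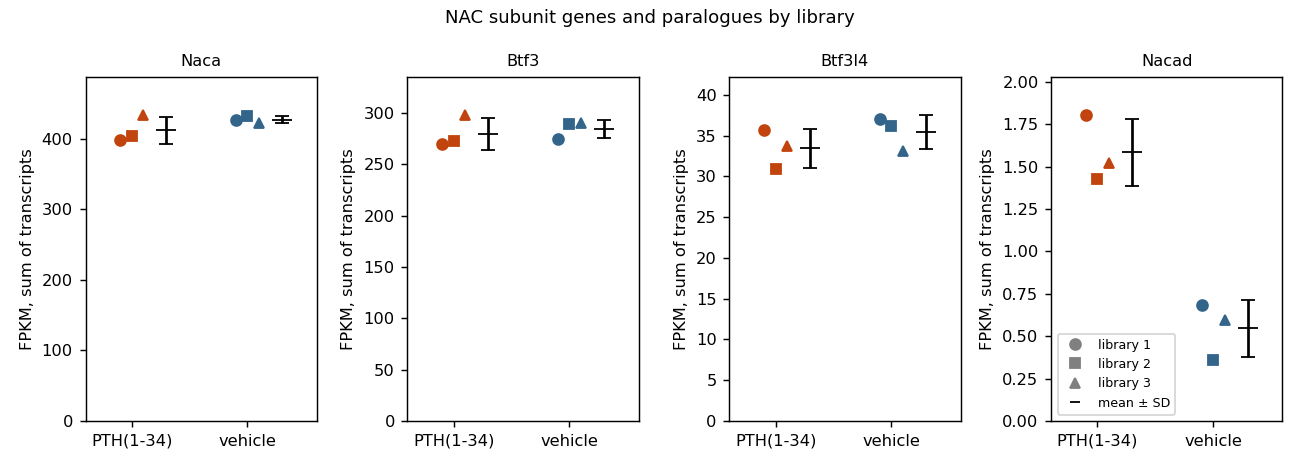
FPKM per library (y axis, summed over transcripts, each panel from 0 on its own scale) of Naca, Btf3 and the paralogues Btf3l4 and Nacad, with PTH(1-34) libraries in orange on the left and vehicle libraries in blue on the right; points are libraries 1 to 3 and bars are mean ± SD (n = 3). PTH and vehicle libraries overlap for Naca, Btf3 and Btf3l4, while the PTH libraries of Nacad, at 1.43 to 1.80 FPKM, lie above its vehicle libraries.

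By mean FPKM over the 6 libraries, Naca ranked 142 of 13659 genes and Btf3 203, so that 99.0% and 98.5% of genes had a lower level. Both genes varied little over the 6 libraries, a spread that includes any difference between PTH and vehicle. The SD of log2(FPKM + 0.5) over all 6 libraries was 0.0519 for Naca, and 94.1% of tested genes had a larger one. For Btf3 the SD was 0.0593, with 91.5% of tested genes above it. Abundant genes vary less as a class, and among the 286 genes with a mean of at least 200 FPKM the median SD was 0.0730; 67.8% of these had a larger SD than Naca and 58.7% a larger one than Btf3. Once each library was centred on the median of its tested genes, the SDs were 0.0602 for Naca and 0.0808 for Btf3, and 90.5% and 80.2% of tested genes lay above them.

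The subunits form a heterodimer, and the ratio of their RNA levels overlapped between the groups. The ratio of Naca to Btf3 in FPKM, a per-length scale, was 1.48, 1.48 and 1.45 in the PTH libraries, against 1.56, 1.50 and 1.45 in the vehicle libraries. Vehicle library 1 had the highest ratio of all 6. The mean ratio was 1.47 ± 0.0156 with PTH and 1.50 ± 0.0513 with vehicle (SD, n = 3 each), a log2 difference of -0.03 (exact two-sided permutation p = 0.5). It was -0.0032 without vehicle library 1 and -0.05 without vehicle library 3. The ratio does not depend on a factor common to a library. With the beta paralogue Btf3l4 added to Btf3, the log2 ratio of Naca to the sum differed by -0.02 (exact permutation p = 0.6).

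Translation-machinery RNAs give a second internal measure. The median of 78 cytosolic ribosomal protein genes was 1155, 1123 and 1157 FPKM in the PTH libraries, against 1143, 1131 and 1108 FPKM in the vehicle libraries. The log2 ratio of Naca to that median was -1.54, -1.47 and -1.42 with PTH, against -1.42, -1.39 and -1.39 with vehicle. PTH libraries 1 and 2 lay below all vehicle libraries and PTH library 3 lay among them (difference of means -0.08, exact permutation p = 0.2). For Btf3 the log2 ratio was -2.10, -2.04 and -1.96 with PTH, against -2.06, -1.97 and -1.93 with vehicle, again with overlap (difference -0.05, exact permutation p = 0.5). With libraries of the same number taken as pairs, PTH was lower in 3 of 3 pairs for both genes (exact sign-flip permutation p = 0.25 each, the smallest that 3 pairs allow).

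**Figure D2:**
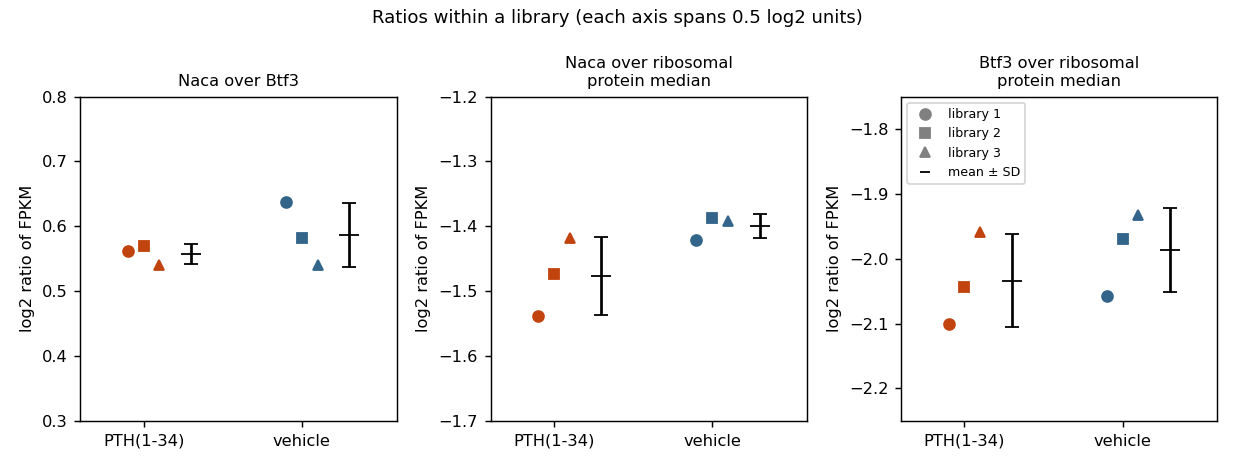
Log2 ratio of FPKM within each library (y axis) for Naca over Btf3, Naca over the ribosomal protein median and Btf3 over that median, PTH(1-34) left and vehicle right; points are libraries 1 to 3, bars are mean ± SD (n = 3), and each axis spans the same width. The groups overlap in all 3 panels, and vehicle library 1 carries the highest Naca to Btf3 ratio.

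The sign of both differences depended on how the libraries were scaled, while no scaling put either past the threshold. The scaling matters here because the typical gene differed between the groups: the median level of the tested genes was 10.9, 10.8 and 10.8 FPKM in the PTH libraries, against 11.9, 11.8 and 11.9 FPKM in the vehicle libraries. Under 9 scalings, the deposited one included, the log2 difference of Naca ran between -0.11 and 0.07, positive under 3 and negative under 6. That of Btf3 ran between -0.12 and 0.10, positive under 4 and negative under 5. When each library was centred on its median gene, the log2 difference was 0.07 for Naca (limma, adjusted p = 0.258) and 0.10 for Btf3 (limma, adjusted p = 0.176), and the median of all tested genes became -0.03. With that centring 42.3% of the tested genes passed, 18.3% higher and 24.0% lower with PTH.

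The members can also be read against the median gene of their own library. The log2 ratio of Btf3 to the median gene was 4.62, 4.66 and 4.78 in the PTH libraries, against 4.53, 4.61 and 4.61 in the vehicle libraries. Every PTH library lay above every vehicle library, which gives an exact permutation p of 0.1, the smallest that 3 against 3 allows without pairing. The median level itself was lower in every PTH library than in every vehicle library. On the deposited scale 13.1% of tested genes lay wholly above with PTH. The share of genes that do so against the median gene was not computed. For Naca the log2 ratio to the median gene was 5.18, 5.22 and 5.32 with PTH, against 5.17, 5.19 and 5.15 with vehicle. The groups overlapped (difference 0.08, exact permutation p = 0.2). By library number, PTH was higher in 3 of 3 pairs for both genes (exact sign-flip permutation p = 0.25 each), the opposite direction to the ratio over the ribosomal protein median. The lowest adjusted p of Naca over 23 alternatives was 0.0796, under quantile normalisation, where its log2 difference was -0.11 (limma, unadjusted p = 0.0381). That of Btf3 was 0.0608, with the replicate number as a block and median centring together, where its log2 difference was 0.10 (limma, unadjusted p = 0.0354). Across the scalings the 95% intervals stayed within 0.792 and 1.33 as a fold for Naca and within 0.808 and 1.36 for Btf3; the widest came from division by the FPKM total, of which Mir5105 took a share that differed between libraries.

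**Figure D3:**
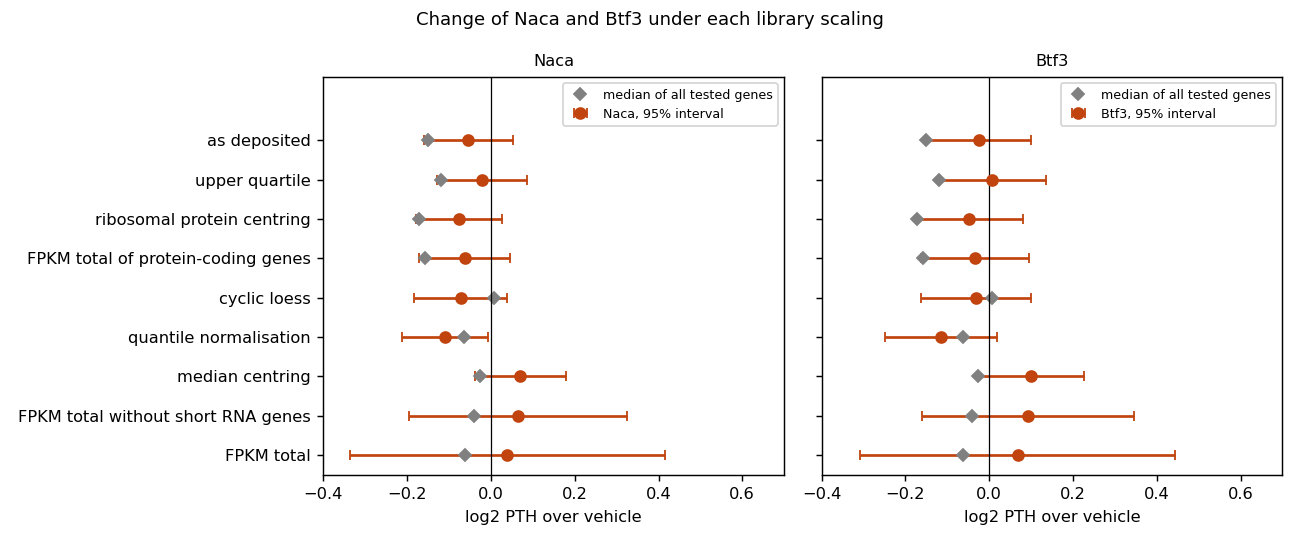
Log2 difference, PTH over vehicle (x axis), of Naca (left) and Btf3 (right) under 9 library scalings (rows); orange points with bars are limma estimates with 95% intervals, and grey diamonds are the medians of all tested genes under the same scaling. The estimates fall on both sides of 0, from -0.11 to 0.07 for Naca and from -0.12 to 0.10 for Btf3.

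The main transcripts carried these levels. Naca-201 made up 99.9% of the Naca sum, at 397.3, 404.1 and 432.9 FPKM with PTH, against 426.7, 431.9 and 421.7 FPKM with vehicle. Its log2 difference was -0.05 (SE 0.04; limma over 21983 transcripts, adjusted p = 0.415). Btf3-205 made up 98.7% of the Btf3 sum, at 267.4, 268.3 and 292.0 FPKM with PTH, against 271.8, 286.3 and 285.9 FPKM with vehicle. Its log2 difference was -0.03 (SE 0.05; limma, adjusted p = 0.702). Both main transcripts overlapped between the groups as their genes did, and 30.3% of the tested transcripts passed the threshold.

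The muscle form of Naca was barely present. Naca-202 stood at 0.358, 0.346 and 0.295 FPKM with PTH, against 0.281, 0.394 and 0.494 FPKM with vehicle. The vehicle libraries held both the lowest and the highest value. Its share of the Naca sum was 0.0812 ± 0.0116% with PTH and 0.0913 ± 0.0256% with vehicle (SD, n = 3 each; exact permutation p = 0.6). The transcript lay under the filter of a mean of 1 FPKM, and without that filter its log2 difference was -0.09 (SE 0.13; limma, adjusted p = 0.682).

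The minor Btf3 transcripts were also low. Btf3-201, the longer coding form, stood at 0.962, 0.649 and 0.972 FPKM with PTH, against 0.975, 0.978 and 0.969 FPKM with vehicle; PTH library 2 lay apart from the other 5. Btf3-202, a transcript annotated with a retained intron at the 3′ end of the gene, stood at 1.05, 1.44 and 1.79 FPKM with PTH, against 1.12, 1.66 and 1.99 FPKM with vehicle (log2 difference -0.11, SE 0.22; limma, adjusted p = 0.743). In both groups library 1 was lowest and library 3 highest. Btf3-204 encodes the same 162 codons as Btf3-205 from another first exon, and was at 0.000757, 1.70 and 2.37 FPKM with PTH, against 0.0237, 0.00174 and 1.48 FPKM with vehicle. It was thus near 0 in 1 PTH library and in 2 vehicle libraries. Btf3-203, the other retained-intron transcript, was listed at 0 in 1 PTH library and 2 vehicle libraries and did not exceed 0.718 FPKM in any library.

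The share of Btf3-205 in Btf3 was 98.6 ± 0.616% with PTH and 98.9 ± 0.351% with vehicle (SD, n = 3 each; exact permutation p = 0.7), a difference of -0.287 percentage points that ran between -0.620 and -0.0123 with 1 library left out (PTH library 1 and PTH library 3). Unequal change between its 2 tested transcripts, Btf3-202 and Btf3-205, did not pass the threshold (limma diffSplice, Simes adjusted p = 0.851), where 11.7% of 4818 genes did. Naca had a single tested transcript, so no such test could be fitted. Transcripts of a gene share reads, and the low estimates are the less certain ones. Processed copies of both genes exist in the mouse genome, and how reads shared with them were assigned is not given in the sources used here.

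**Figure D4:**
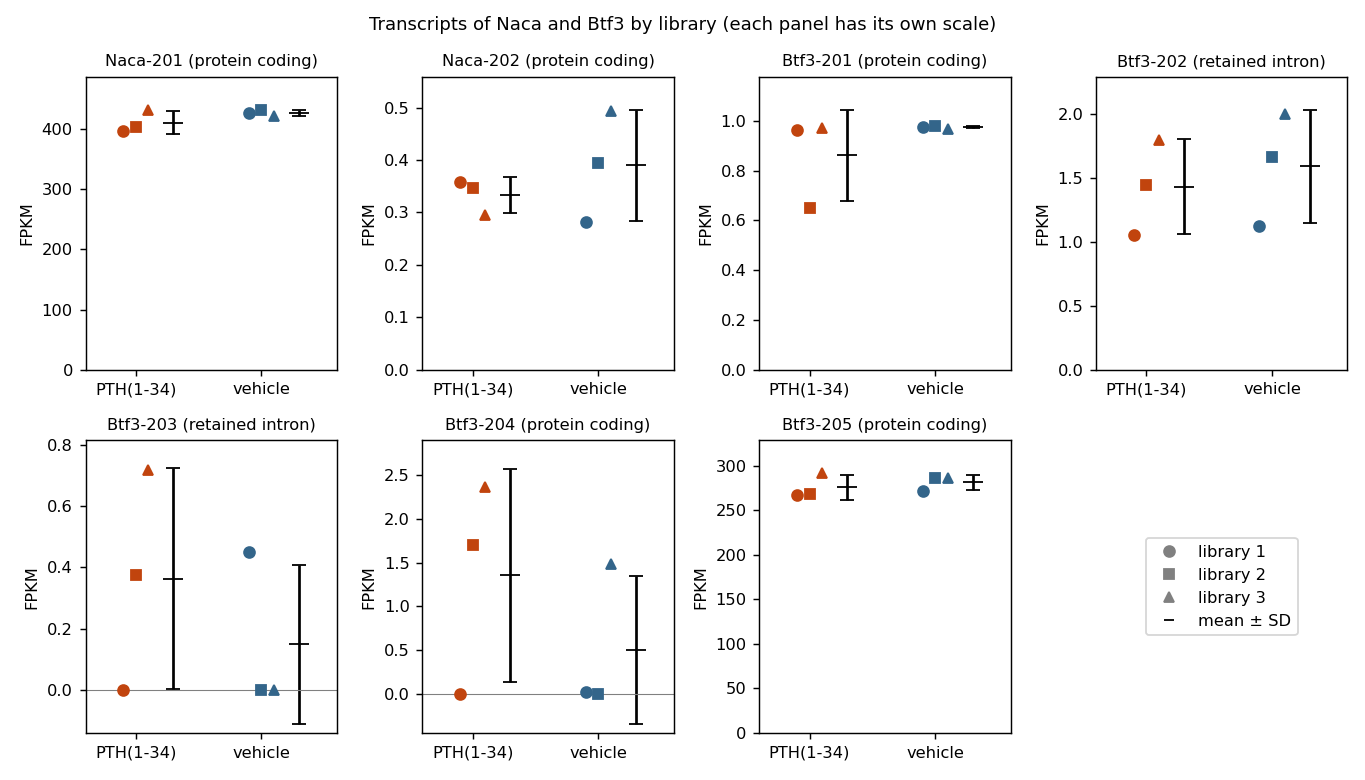
FPKM per library (y axis, each panel on its own scale) of the 2 Naca and 5 Btf3 transcripts, with their annotated type; PTH(1-34) libraries are orange on the left and vehicle libraries blue on the right, and bars are mean ± SD (n = 3), which may reach below 0. Naca-201 and Btf3-205 stand at 267.4 FPKM or more, and the other 5 transcripts stay under 2.4 FPKM.

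The authors' deposited table compares 2 groups named q1 and q2, without saying which is which. The signs of transcripts whose groups did not overlap point to q2 as PTH. Nacad-201, higher in all PTH libraries, had a log2 fold change of 1.86 there (q-value 0.00111). Btf3l4-204, Btf3l4-205 and Btf3l4-206, lower in all PTH libraries, had -0.12, -0.43 and -1.26 (q-value 0.998 each). In the authors' deposited table the log2 fold change of q2 over q1 was 0.11 for Naca-201, with a q-value of 0.947. For Btf3-205 the authors' deposited table gives a log2 fold change of 0.14 with a q-value of 0.769. With q2 read as PTH, Naca-201 and Btf3-205 were higher with PTH in the authors' comparison. Their log2 differences from the deposited FPKM had the opposite sign, at -0.0537 and -0.0291. The median log2 fold change of 21935 transcripts in the authors' deposited table was 0.02. Of the 21983 tested transcripts, 2475 had an authors' q-value under 0.05, whereas 6670 passed the limma threshold.

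The paralogues were lower and differed from each other. Btf3l4, a second gene for a beta subunit of NAC, stood at 35.7, 30.9 and 33.8 FPKM with PTH, against 37.0, 36.1 and 33.1 FPKM with vehicle. The groups overlapped, and the log2 difference was -0.08 (SE 0.07; limma, adjusted p = 0.354). Nacad, which encodes a large protein with a NAC domain like that of NACA, stood at 1.80, 1.43 and 1.52 FPKM with PTH, against 0.687, 0.361 and 0.593 FPKM with vehicle. All PTH libraries lay above all vehicle libraries, as for 13.1% of tested genes. Nacad rose by 1.00 on the log2(FPKM + 0.5) scale (SE 0.15; limma, adjusted p = 0.00188). At this low level the rise depended on the added constant, and was 1.41 with 0.1 added and 0.743 with 1 added. The means were 1.58 ± 0.195 FPKM with PTH and 0.547 ± 0.168 FPKM with vehicle (SD, n = 3 each). Nacad reached the mean of 1 FPKM needed for testing only through the PTH libraries, and it is not tested once any of these is left out. Without the low-value filter the limma adjusted p was 0.00152. Even with PTH, Nacad lay far below Naca.

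The genes whose levels followed those of the members most closely were chosen among genes within a 2-fold range of their mean FPKM, by Pearson's r of log2 values over the 6 libraries. For Naca, out of 180 genes compared, these were Tcp1 (r = 0.850), Hnrnpa2b1 (0.839), Btf3 (0.796), Npm1 (0.768) and Hnrnpk (0.743), so its own partner stood among the 5. For Btf3, out of 291 genes, they were Rpl10a-ps1 (r = 0.935), Atp5a1 (0.880), Plp2 (0.833), Flna (0.819) and Cox7a2l (0.806); Naca came next, at 0.796. Tcp1 encodes a subunit of the chaperonin that folds actin and tubulin, the Hnrnp genes encode RNA-binding proteins, and Atp5a1 a subunit of mitochondrial ATP synthase. The 6 points share library scaling and replicate number, and the values are a description.

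Counts in the gene lists that follow are read against the shares over all tested genes, which were 10.8% higher and 41.0% lower as deposited and 18.3% higher and 24.0% lower with centred libraries; no list was tested as a whole. Of 9 tested genes of the signal recognition particle and its receptor, 1 rose and 2 fell, together 33.3% against 51.7% of all genes (median log2 0.00, against -0.15 for all genes). Srprb, the membrane-anchored beta subunit of the receptor, rose by 0.19 (SE 0.06; limma, adjusted p = 0.0381), a call lost without any 1 of the PTH libraries, vehicle library 1 or vehicle library 3. Srp68, which binds the particle's RNA, fell to 37.1, 37.9 and 36.6 FPKM with PTH, against 47.2, 48.1 and 47.5 FPKM with vehicle (log2 difference -0.35; limma, adjusted p = 0.000451), a call lost under the FPKM total with or without short RNA genes. Srp19, an assembly subunit, fell by 0.20 (limma, adjusted p = 0.0123). With centred libraries 4 of the 9 were higher and 1 lower, and Srp19 no longer passed (log2 difference -0.08). Among the ribosome-associated chaperones, Dnajc2 fell by 0.35 on the log2 scale (SE 0.06; limma, adjusted p = 0.00385), a call lost under cyclic loess (-0.19; limma, adjusted p = 0.0607) and under the same totals as Srp68. Its partner Hspa14 had a log2 difference of -0.01 and the general chaperone Hspa8 one of 0.16, which did not pass as deposited (limma, adjusted p = 0.127) and passed with centred libraries (0.28; limma, adjusted p = 0.0248) and with the replicate number as a block (limma, adjusted p = 0.00603). None of the 4 Sec61 translocon genes, which form the channel into the endoplasmic reticulum, passed in either of these scalings, with log2 differences between -0.09 and -0.01 as deposited; 2 passed under quantile normalisation, where 42.1% of the tested genes did. With the replicate number as a block 1 of the 4 was lower, Sec61a1 (-0.09; limma, adjusted p = 0.0445), where 63.8% of the tested genes passed.

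Of 13 genes for enzymes that trim or modify the new N terminus beside NAC, 1 rose and 9 fell on the deposited scale, together 76.9% against 51.7% of all genes (median log2 -0.19, against -0.15 for all genes). With centred libraries 2 were higher and 5 lower, together 53.8% against 42.3% (median -0.07, against -0.03). Metap1, one of the enzymes that remove the initiator methionine, stood at 41.6, 39.7 and 38.7 FPKM with PTH, against 18.0, 19.2 and 18.2 FPKM with vehicle. It rose by 1.10 on the log2 scale (SE 0.05; limma, adjusted p = 1.5e-05), and passed under all 23 alternatives. Naa40, the acetyltransferase of histone H4 and H2A N termini, fell by 0.75, Naa35, a subunit of the NatC acetyltransferase, by 0.39, and Naa20, the catalytic subunit of NatB, by 0.33. Naa40 passed under all 23 alternatives, whereas Naa35 and Naa20 each passed under 21.

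Ribosomal and other 5′ TOP mRNAs, the class whose translation responds to growth signals, did not pass on the deposited scale, with 1 exception. Of the 8 ribosomal protein genes of the exit site where NAC docks, 0 passed as deposited (median log2 0.03) and 8 were higher with centred libraries (median 0.15). Rpl23a stood at 2338, 2155 and 2162 FPKM with PTH, against 2142, 2159 and 2175 FPKM with vehicle. Of 16 other TOP mRNAs, such as Tpt1 and Eef1b2, 0 passed as deposited (median 0.03) and 8 were higher with centred libraries (median 0.16). With the replicate block these became 1 higher and 1 lower as deposited, and 13 higher with centred libraries, where 55.8% of all tested genes passed. Of all 78 cytosolic ribosomal protein genes 1 passed as deposited, Rps3a3, a low-level relative of Rps3a1 whose reads may be split between them, and 60 were higher with centred libraries; the block gave 2 as deposited. The count of this class thus depended on the scaling, and leaving out PTH library 2 or 3 or any 1 vehicle library ended the call of Rps3a3.

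**Figure D5:**
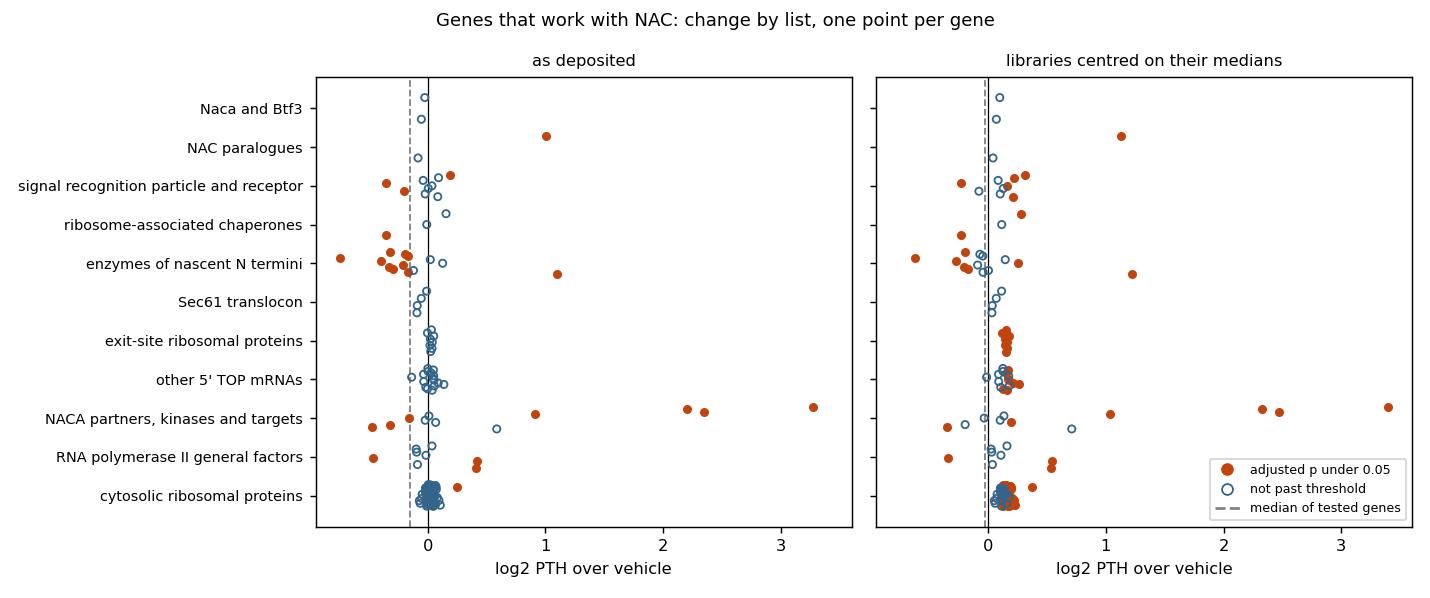
Log2 difference, PTH over vehicle (x axis), of each tested gene in Naca and Btf3 and in 10 lists of related genes (rows), on the deposited scale (left) and with libraries centred on their medians (right); filled points passed the adjusted p of 0.05, open points did not, and the dashed line is the median of all tested genes. Naca and Btf3 are open in both panels, and the ribosomal protein genes are nearly all open on the left and mostly filled on the right.

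The next list holds 11 genes for partners, kinases and targets of NACA in osteoblasts. As deposited, 4 rose (Nfil3, Bglap, Bglap2 and Lrp6) and 3 fell (Txlng, Ilk and Prkacb). Together these were 63.6% of the list, against 51.7% of all genes (median log2 0.07, against -0.15). The list holds Nfil3, which the study's title names, so it is not independent evidence of a direction. Nfil3, a bZIP repressor, stood at 139.5, 141.3 and 153.0 FPKM with PTH, against 13.4, 15.5 and 14.6 FPKM with vehicle, a rise of 3.27 on the log2 scale (SE 0.07; limma, adjusted p = 7.9e-07). The osteocalcin genes Bglap and Bglap2 rose by 2.35 and 2.20, and Lrp6, a Wnt co-receptor, by 0.91. With PTH, Bglap stood at 20.54, 22.92 and 37.09 FPKM and Bglap2 at 20.32, 21.15 and 33.7 FPKM. How reads were assigned between these 2 genes is not given, so they may not be separate signals in the count. Txlng, which encodes a repressor of ATF4 that binds NACA, fell by 0.48 (limma, adjusted p = 0.00307), a call lost under cyclic loess (-0.20; limma, adjusted p = 0.0993) and under the FPKM total with or without short RNA genes.

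Among kinases that phosphorylate NACA, 2 fell and 2 did not pass as deposited, where 41.0% of all tested genes were lower. Neither fall passed with centred libraries. Ilk, integrin-linked kinase, fell by 0.32 on the log2 scale (SE 0.10; limma, adjusted p = 0.0339), and passed under 14 of 23 alternatives. The call was lost without any 1 of the vehicle libraries and with centred libraries, where Ilk stood at -0.20 (limma, adjusted p = 0.174). Prkacb, a catalytic subunit of protein kinase A, fell by 0.16 (limma, adjusted p = 0.0151) but stood at -0.03 with centred libraries, where it did not pass; the call was also lost without PTH library 3 or vehicle library 3. Prkaca, the other catalytic subunit, had a log2 difference of -0.02, glycogen synthase kinase Gsk3b one of 0.07 and the deacetylase Hdac1 one of 0.01, and none of them passed as deposited. With centred libraries Gsk3b was higher by 0.19 (limma, adjusted p = 0.0256), while Prkaca and Hdac1 did not pass. Jun, whose AP-1 protein NACA coactivates, stood at 7.807, 11.32 and 12.04 FPKM with PTH, against 5.021, 9.435 and 6.130 FPKM with vehicle, and did not pass as deposited (log2 difference 0.59; limma, adjusted p = 0.0845). Jun passed under 7 of 23 alternatives, among them cyclic loess (0.81; limma, adjusted p = 0.0424) and the replicate block (0.59; limma, adjusted p = 0.00789). The general factors of RNA polymerase II, with which BTF3 was first purified, gave 2 higher and 1 lower of 8, together 37.5% against 51.7% of all genes. Gtf2b rose by 0.42 and Gtf2a1 by 0.41, and Gtf2e1 fell by 0.46 on the log2 scale, a call lost under the FPKM total.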

How the data were processed

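TRIzol RNA was made into stranded mRNA libraries and sequenced as paired 100-base reads, and the authors estimated transcript FPKM with Cufflinks, per the labels' protocols. Build mm10 comes from the submitters' processing notes; the aligner, tool versions and annotation release are not stated there. For each transcript the deposited table also holds the authors' own log2 fold change, p-value and q-value.

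FPKM were summed per symbol, and features with a mean of at least 1 were tested with limma 3.58.1 (R 4.3.3; eBayes with an intensity trend, two-sided, Benjamini-Hochberg, threshold 0.05) on log2(FPKM + 0.5), which understates the change of low genes. Exact permutation tests used scipy 1.17.1; tables used pandas 2.3.3 under Python 3.11.15, and figures matplotlib 3.10.9. The test was tried on simulated data. The members and lists were chosen with earlier results of these data known. Named genes are the members, all of a list with 4 or fewer genes, otherwise up to 3 with the largest change past the threshold in each direction, and the 2 most abundant where no member passed; Lrp6, Jun, Gsk3b, Prkaca, Hdac1 and the osteoblast markers fall outside this rule and were named after their values were seen. No label states that the libraries are separate cultures, and the p-values cover only their spread, which may be technical. Library numbers come from the titles, which do not state that they pair the libraries. Same-numbered PTH and vehicle libraries deviated together from their group means (r = 0.422, 0.275 and 0.285). Unlike numbers gave r from -0.291 to -0.026. Deviations from a group mean sum to 0, so these r values are not independent. The numbers were taken as pairs on that ground. The blocked fit changed no call of Naca or Btf3. One sequence is not reported here.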

Additional observations from a re-analysis of the deposited data

How the results depend on the processing

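Naca and Btf3 stayed short of the threshold under all 23 alternatives each. Their sign did not hold. For Naca the log2 difference turned to 0.0702 under median centring, 0.0393 under the FPKM total, 0.0641 under the total without short RNA genes and 0.0702 under the replicate block with median centring. For Btf3 it turned to 0.0991, 0.0683, 0.0930 and 0.0991 in the same order, and to 0.00755 under the upper quartile. Leaving out 1 library gave -0.0909 to -0.0292 for Naca and -0.0704 to 0.00195 for Btf3, the last without PTH replicate 1. The log2 ratio of Naca to Btf3 differed by 0.00582 under quantile normalisation and by -0.0522 to -0.00324 with 1 library left out. Naca-201 turned to 0.0618, 0.0395 and 0.0618 and Btf3-205 to 0.0864, 0.0641 and 0.0864 under median centring, the FPKM total and the centred block. Btf3-202 turned to 0.00424 under centring and the centred block, 0.0195 under quantile normalisation and 0.0791 under cyclic loess, and ran from -0.285 to 0.0361 with 1 library left out. The share of Naca-202 differed by -0.0228 to 0.00281 percentage points with 1 library left out, and that of Btf3-205 by -0.620 to -0.0123 with 1 library left out and by 0.0471 among transcripts of at least 1 FPKM. The cause was not tested.

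The number of genes past the threshold, 6017 as deposited, was 2018 under the FPKM total and 2833 under that total without short RNA genes, and ran from 4991 to 5641 with 1 library left out. That of transcripts, 6670 of 21983 tested, was 2129 and 2913 under the same totals. With a minimum of 5 FPKM it was 4003 of 10577 tested, a share of 37.8% against 30.3% as deposited. Without replicate 1 of both groups it was 4155 of 22034 tested. Centring moved the split of called genes to 18.3% higher and 24.0% lower. With the replicate number as a block, Naca had an adjusted p of 0.276 and Btf3 of 0.568 (limma), with 7416 genes and 7590 transcripts past the threshold. The block also brought Hspa8, Jun, Sec61a1 and the cartilage marker Col2a1 past the threshold, among others. With it 2 of 5 osteoblast markers were lower, against 1 without it. Of the 13 enzymes of the N terminus 10 were lower, against 9. The total of protein-coding genes and the pairing of the ratios were added after seeing the data. Depth is unknown, and with 3 libraries a group no outlier test was made.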
